A study of Mus musculus with 20 samples.

Results

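The 10 genes described here, out of 47069 in the deposited count table, are the ligand Vegfa, its receptors Kdr and Flt1, and 7 genes of the endothelium, Pecam1, Cdh5, Emcn, Plvap, Vwf, Ehd3 and Nos3. They were found in the table by gene symbol. RNA of whole kidneys was sequenced from 20 male mice at 15 weeks of age. The mice were F1 offspring of a 129SJ and C57Bl/6J cross. They comprised 5 WT mice without treatment, 6 F1-Col4a3-/- mice given PBS (Veh), 6 F1-Col4a3-/- mice given lademirsen, which blocks miR-21, at 50 mg/kg (anti-miR-21), and 3 F1-Col4a3-/- mice given ramipril, an ACE inhibitor (ACEi), at 11 mg/L in the drinking water. PBS and lademirsen were injected subcutaneously once weekly, and treatment began at 5 weeks of age. According to the study's methods the ACEi mice received PBS as well. The library table gives the ramipril dose as 4 mg/kg instead. Every treated group and Veh carried the same constitutive disruption of Col4a3, which encodes the α3 chain of type IV collagen, and the groups differed from WT in both genotype and handling. The libraries held between 28474301 and 29479629 estimated counts on genes, and 17622 genes, all 10 described here among them, passed the filter on low counts. Levels are CPM, counts relative to a common library size after TMM scaling, and a gene was called at an edgeR adjusted p under 0.05.

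Vascular endothelial growth factor A is secreted in the kidney mainly by podocytes and tubule cells and acts on nearby endothelium. Kdr (VEGFR2) carries most of its growth and survival signal, whereas Flt1 (VEGFR1) binds the ligand tightly and signals weakly, and its soluble form acts as a decoy. Kidney endothelium differs by bed: glomerular capillaries are fenestrated and rich in Ehd3, peritubular capillaries are fenestrated and rich in Plvap, and larger vessels hold more Vwf. In bulk RNA of a whole kidney, fewer cells of a type and less RNA per cell cannot be told apart.

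The promoters of Vegfa, Kdr, Ehd3 and Emcn are shown here because of their calls with TMM scaling. The first 3 were called lower in Veh than in WT and higher in both treated groups than in Veh. Emcn was not called in any of these comparisons. Several of the Kdr and Ehd3 calls were lost with other scalings or without single mice, as given below. Each run is the 250 bases before the annotated start (for Vegfa the first of its 2 RefSeq starts), 5′ to 3′ on the gene's strand, from RefSeq on GRCm38.p6. The positions are chr17:46032378-46032627 on the minus strand for Vegfa, chr5:75978456-75978705 on the minus strand for Kdr, chr17:73804591-73804840 on the plus strand for Ehd3 and chr3:137340828-137341077 on the plus strand for Emcn. Capitals mark matches, on either strand, to a form of the hypoxia response element core (ACGTG, or CACGT on the other strand). They also mark matches to 2 cores bound by ETS factors (CAGGAA, or TTCCTG, and CCGGAA, or TTCCGG). Other forms of these cores were not searched for and are not marked. The 3 motifs do not overlap in these windows. The Ehd3 window lies inside the gene bounds given below (chr17:73804134-73832094), because the RefSeq start used lies downstream of their first base.
Vegfa: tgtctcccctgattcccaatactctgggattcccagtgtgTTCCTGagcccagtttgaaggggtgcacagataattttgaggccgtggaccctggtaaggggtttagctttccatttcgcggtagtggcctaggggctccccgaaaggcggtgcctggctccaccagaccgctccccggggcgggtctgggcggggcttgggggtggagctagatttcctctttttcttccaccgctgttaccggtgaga
Kdr: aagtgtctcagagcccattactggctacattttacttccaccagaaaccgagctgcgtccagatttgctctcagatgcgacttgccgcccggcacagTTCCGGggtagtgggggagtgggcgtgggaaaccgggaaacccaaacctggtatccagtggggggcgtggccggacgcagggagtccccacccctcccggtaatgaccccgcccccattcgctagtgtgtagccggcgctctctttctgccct
Ehd3: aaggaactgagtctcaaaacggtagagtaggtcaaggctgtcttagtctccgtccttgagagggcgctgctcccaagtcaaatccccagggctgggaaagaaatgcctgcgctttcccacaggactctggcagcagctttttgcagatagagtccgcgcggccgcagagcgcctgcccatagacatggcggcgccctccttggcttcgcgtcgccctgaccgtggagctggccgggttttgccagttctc
Emcn: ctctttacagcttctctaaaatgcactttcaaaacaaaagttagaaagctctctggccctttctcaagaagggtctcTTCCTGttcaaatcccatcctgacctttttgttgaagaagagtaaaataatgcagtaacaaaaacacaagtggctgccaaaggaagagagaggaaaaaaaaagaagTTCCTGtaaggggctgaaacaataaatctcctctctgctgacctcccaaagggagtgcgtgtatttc
The printed Vegfa window held 1 CAGGAA match, the Kdr window 1 CCGGAA match and the Emcn window 2 CAGGAA matches. The Ehd3 window, inside the gene, held none. The window of the second Vegfa start, chr17:46025164-46025413 on the minus strand and inside the gene, held 1 match to ACGTG. Of 32851 promoter windows of the same length, 16.57% held ACGTG, 25.71% CAGGAA and 12.03% CCGGAA. A match describes the letters only and says nothing of whether a factor bound there. RefSeq entries were matched for 5 of the 10 genes, and the Flt1 window, the fifth, held no match.

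The target of the drug, mmu-miR-21a-5p, is shown with its seed (bases 2 to 8) in capitals, since a gene can be repressed directly by miR-21 through a match to these bases in its 3′ untranslated region (UTR). It lies at chr11:86584120-86584141 on the minus strand (RefSeq, GRCm38.p6).
mmu-miR-21a-5p: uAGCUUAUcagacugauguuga
Flt1 site: aagactaatgATAAGCTatgagaacca
Among the 10 genes, only Flt1 had the complementary 7 bases (ATAAGCT, in capitals) in its 3′ UTR. The match began at position 3233 of a UTR of 3971 bases, at chr5:147635891-147635897 on the minus strand of GRCm38. Such a match was present in 1160 of 15245 tested genes with an annotated 3′ UTR (7.609%). Flt1 was not called between the anti-miR-21 group and Veh (log2 fold change 0.34, 95% interval -0.06 to 0.73, edgeR adjusted p = 0.13).

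The knockout target was read first. Col4a3 was at 194 to 238 CPM in WT kidneys and 27.9 to 46.3 CPM in Veh kidneys. With anti-miR-21 it was at 45.9 to 74.9 CPM, and with ACEi at 42.8 to 56.2 CPM. The extract protocol of the labels speaks of adipose tissue although the tissue label is kidney, and kidney markers were present in every library: the 5 proximal tubule markers summed to at least 1585 CPM and the 5 podocyte markers to at least 195 CPM. A list of 20 other endothelial genes summed to between 288 and 854 CPM, and none of the 20 was at 0 throughout.

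Some libraries stood apart in ways that touch these genes. WT replicate 5 was the lowest WT mouse in 9 of the 10 genes, in 18 of the 20 other endothelial genes and in 25.5% of all genes tested. Endothelial genes were not alone in this. That mouse was also lowest in 4 of 5 fibroblast, 4 of 5 podocyte and 3 of 3 leukocyte markers. It was lowest in 0 of 3 thick ascending limb, 0 of 3 collecting duct and 0 of 5 adipocyte markers. For 8 of the 10 genes described here its CPM was between 35.1% and 50.8% of the mean of the other 4 WT mice. For Nos3 it was 80.5% and for Vegfa 93.9%. Veh replicates 1, 2 and 3 and anti-miR-21 replicate 4 carried 410, 366, 351 and 224 CPM of 5 adipocyte markers, against 0.525 to 56.0 CPM in the other 16 libraries. The libraries came from 2 flow cells, 13 from one (3 WT, 4 Veh, 5 anti-miR-21 and 1 ACEi) and 7 from the other. Where leaving out such libraries, or keeping to the larger flow cell, ended or made a call, both values are given.

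On the per-length scale, WT kidneys held most Vegfa, at 79.2 ± 6.99 FPKM (SD, n = 5), followed by Plvap at 54.3 ± 22.8 FPKM and Emcn at 28.9 ± 11.4 FPKM. Pecam1 (11.2 ± 3.997 FPKM) and Ehd3 (10.0 ± 2.53 FPKM) came next, and differed by less than their SDs. Cdh5 (5.93 ± 1.89 FPKM) and Kdr (5.61 ± 2.38 FPKM) likewise lay within each other's spread. Flt1 was at 2.53 ± 1.17 FPKM, Nos3 at 1.81 ± 0.356 FPKM and Vwf at 0.977 ± 0.564 FPKM, and the ranges over the 5 WT mice overlapped between every pair of neighbours in this order. Within every WT mouse, however, Plvap was above Emcn, Emcn above Pecam1, Ehd3 above Cdh5 and Kdr above Flt1. The other neighbours changed places between mice.

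In Veh kidneys the order changed at the top, with Plvap at 114 ± 17.1 FPKM (SD, n = 6), Emcn at 57.6 ± 9.49 FPKM and Vegfa at 47.7 ± 4.001 FPKM. Vwf, the lowest of the 10 in WT, reached 6.92 ± 3.91 FPKM, and the lowest 2 in Veh were Kdr at 4.87 ± 0.646 FPKM and Flt1 at 3.65 ± 0.589 FPKM. The deposited FPKM were divided by library totals without TMM scaling, so a ratio between groups on this scale differs from one in CPM. The authors marked the FPKM of Plvap and Nos3 as confounded with another gene. In GRCm38, Plvap (chr8:71497765-71511752, minus strand) overlaps Gtpbp3, Nos3 (chr5:24364810-24384474, plus strand) overlaps Gm15587 and Atg9b, and Cdh5 (chr8:104101625-104144511, plus strand) overlaps Gm29682, each on the opposite strand. Whether the counting used strand is not given in the sources used here, so reads from these pairs may not be separable.

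**Figure D1:**
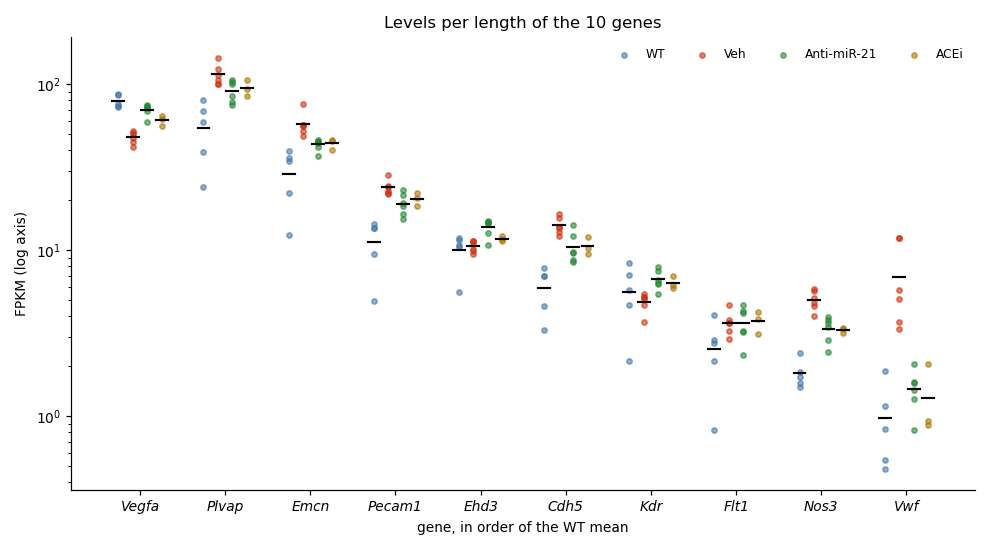
Levels of the 10 genes in FPKM (log axis) in each group, with 1 point per mouse and lines at the group means. Vegfa, Plvap and Emcn are the 3 highest genes in every group, Vegfa leading in WT at 79.2 FPKM and Plvap in Veh at 114 FPKM.

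Veh and WT mice differed in both genotype and handling. In Veh relative to WT, the ligand Vegfa and its receptor Kdr were lower, and Vwf, Nos3, Cdh5, Pecam1 and Plvap were higher. Of the 10 genes, 5 were called higher and 3 lower (the third was Ehd3). Across all genes tested 73.0% were called, 39.0% higher and 34.0% lower, so a share of 8 in 10 lay near the background. The median log2 fold change was 0.45 over the 10 genes and 0.07 over all genes tested. Veh and WT did not overlap for 4 higher genes and 1 lower gene, as for 54.9% of all genes (28.8% higher and 26.1% lower).

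Vegfa (chr17:46016993-46032369, minus strand) was at 327, 306, 263, 258 and 271 CPM in WT and at 95.9 CPM (lowest), 113 CPM (median) and 128 CPM (highest) in Veh. Every Veh mouse was below every WT mouse. The level was 2.53-fold lower (log2 fold change -1.34 ± 0.0932 SE, edgeR adjusted p = 1.2e-10).

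Kdr (chr5:75932827-75978458, minus strand), the main signalling receptor, was at 39.8, 61.9, 56.8, 44.2 and 18.3 CPM in WT and at 20.9, 25.8 and 31.0 CPM in Veh (lowest, median, highest). WT replicate 5 lay below every Veh mouse, and the other 4 WT mice lay above every Veh mouse. The level was 1.71-fold lower in Veh (log2 fold change -0.78 ± 0.193 SE, edgeR adjusted p = 0.0012), and the log2 fold change was -0.97 without that mouse (edgeR adjusted p = 4.9e-07). With library totals in place of TMM scaling it was -0.20 and no longer called (edgeR adjusted p = 0.34), a scaling under which the median of all genes lay at 0.65.

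Flt1 (chr5:147561604-147726011, minus strand), the binding and decoy receptor, was at 31.8, 46.0, 37.9, 36.9 and 13.4 CPM in WT and at 26.1, 30.9 and 38.2 CPM in Veh (lowest, median, highest). It was not called, with a log2 fold change of -0.08 (95% interval -0.49 to 0.34, edgeR adjusted p = 0.73). Its sign depended on the setting: -0.28 without WT replicate 5 (edgeR adjusted p = 0.054), -0.40 within the larger flow cell (edgeR adjusted p = 0.028), and 0.50 with library totals (edgeR adjusted p = 0.032). No direction was therefore read for Flt1.

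Pecam1 (chr11:106654217-106750628, minus strand) encodes the adhesion molecule CD31. It was at 39.7, 55.2, 54.5, 52.0 and 20.4 CPM in WT and at 56.3, 62.2 and 73.1 CPM in Veh (lowest, median, highest). Every Veh mouse was above every WT mouse, by a narrow gap. The log2 fold change was 0.50 ± 0.169 SE (edgeR adjusted p = 0.012), 0.31 without WT replicate 5 (edgeR adjusted p = 0.0081) and 0.28 within the larger flow cell, where the call was lost (edgeR adjusted p = 0.055).

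Cdh5, or VE-cadherin, forms the endothelial adherens junction. Its level was 23.4, 36.5, 34.0, 32.5 and 16.1 CPM in WT and 38.1, 44.2 and 52.1 CPM in Veh (lowest, median, highest). The groups did not overlap. Cdh5 was 1.58-fold higher in Veh (log2 fold change 0.66 ± 0.159 SE, edgeR adjusted p = 0.00091) and kept its call without WT replicate 5 (log2 fold change 0.51, edgeR adjusted p = 0.0013).

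Emcn (chr3:137341067-137432185, plus strand) encodes endomucin, a sialomucin of capillary and venous endothelium. WT mice had 42.1, 59.8, 65.6, 68.8 and 22.2 CPM and Veh mice 55.8, 65.6 and 89.9 CPM (lowest, median, highest), so that 3 WT mice lay within the Veh range. It was not called (log2 fold change 0.40, 95% interval 0.00 to 0.81, edgeR adjusted p = 0.066), nor without WT replicate 5 (0.21, edgeR adjusted p = 0.15). The call appeared without WT replicate 3 or 4 or Veh replicate 5 (edgeR adjusted p 0.034, 0.024 and 0.047), with upper-quartile scaling (edgeR adjusted p = 0.023) and with library totals (log2 fold change 0.98, edgeR adjusted p = 0.00015).

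Plvap, the protein of the diaphragms that span fenestrae, was at 100.3, 139.7, 170.3, 189 and 59.1 CPM in WT and at 156, 184 and 229 CPM in Veh (lowest, median, highest). The 2 highest WT mice lay within the Veh range. Plvap was called higher (log2 fold change 0.49 ± 0.198 SE, edgeR adjusted p = 0.031), but not without WT replicate 1 or 5 or Veh replicate 2 or 6 (log2 fold change 0.31 without WT replicate 5, edgeR adjusted p 0.086, 0.065, 0.051 and 0.069), nor within the larger flow cell (edgeR adjusted p = 0.065), nor without the 4 adipocyte-rich libraries (edgeR adjusted p = 0.057).

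Vwf (chr6:125546774-125686679, plus strand) encodes von Willebrand factor, which endothelial cells store and release for platelet adhesion. It was at 2.09, 3.24, 4.48, 7.19 and 1.64 CPM in WT and at 8.22, 14.2 and 29.0 CPM in Veh (lowest, median, highest). The groups did not overlap. The 2 highest Veh values, 28.2 and 29.0 CPM, were in replicates 1 and 2, which also carried most adipocyte marker RNA. Replicate 3, at 351 CPM of adipocyte markers, held 12.96 CPM of Vwf. That was below replicate 6, which held 15.4 CPM of Vwf at 0.592 CPM of the markers. Replicates 4 and 5, at 23.4 and 1.92 CPM of the markers, held 10.1 and 8.22 CPM of Vwf. Vwf was 4.63-fold higher in Veh (log2 fold change 2.21 ± 0.395 SE, edgeR adjusted p = 4.1e-05). Without the 4 adipocyte-rich libraries the log2 fold change was 1.59 (edgeR adjusted p = 0.0017), and any part of that tissue in the larger value was not tested.

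Platelets also hold Vwf RNA. Of 5 platelet and megakaryocyte markers, Pf4 (also made by some macrophages) was higher in Veh (2.04 to 5.03 CPM against 0.178 to 0.736 CPM in WT), Itga2b was lower (4.12 to 5.99 CPM against 8.73 to 13.04 CPM), and Ppbp and Gp1ba were not called. The fifth, Gp9, was at 0.0829 CPM or less in every Veh library and did not pass the filter. Their summed level was 9.62 to 15.0 CPM in WT and 8.18 to 10.8 CPM in Veh. Most of the WT sum was Itga2b, so the sum does not follow Pf4. Whether platelet RNA changed was not tested.

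Ehd3 (chr17:73804134-73832094, plus strand), an endocytic protein that marks glomerular endothelium in the kidney, was at 49.3, 50.9, 47.9, 48.8 and 24.9 CPM in WT and at 27.4, 30.8 and 36.4 CPM in Veh (lowest, median, highest). As for Kdr, WT replicate 5 lay below every Veh mouse and the other 4 WT mice above. The level was 1.43-fold lower in Veh (log2 fold change -0.51 ± 0.139 SE, edgeR adjusted p = 0.0024) and the log2 fold change was -0.67 without that mouse (edgeR adjusted p = 2.2e-06). With library totals the sign turned, to 0.07, and the call was lost.

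Nos3, the endothelial nitric oxide synthase, was at 8.33, 11.6, 9.33, 8.22 and 7.55 CPM in WT and at 14.5, 16.03 and 18.99 CPM in Veh (lowest, median, highest). The groups did not overlap. It was 1.83-fold higher in Veh (log2 fold change 0.88 ± 0.111 SE, edgeR adjusted p = 4.9e-07), with 0.82 without WT replicate 5 and 0.81 within the larger flow cell.

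**Figure D2:**
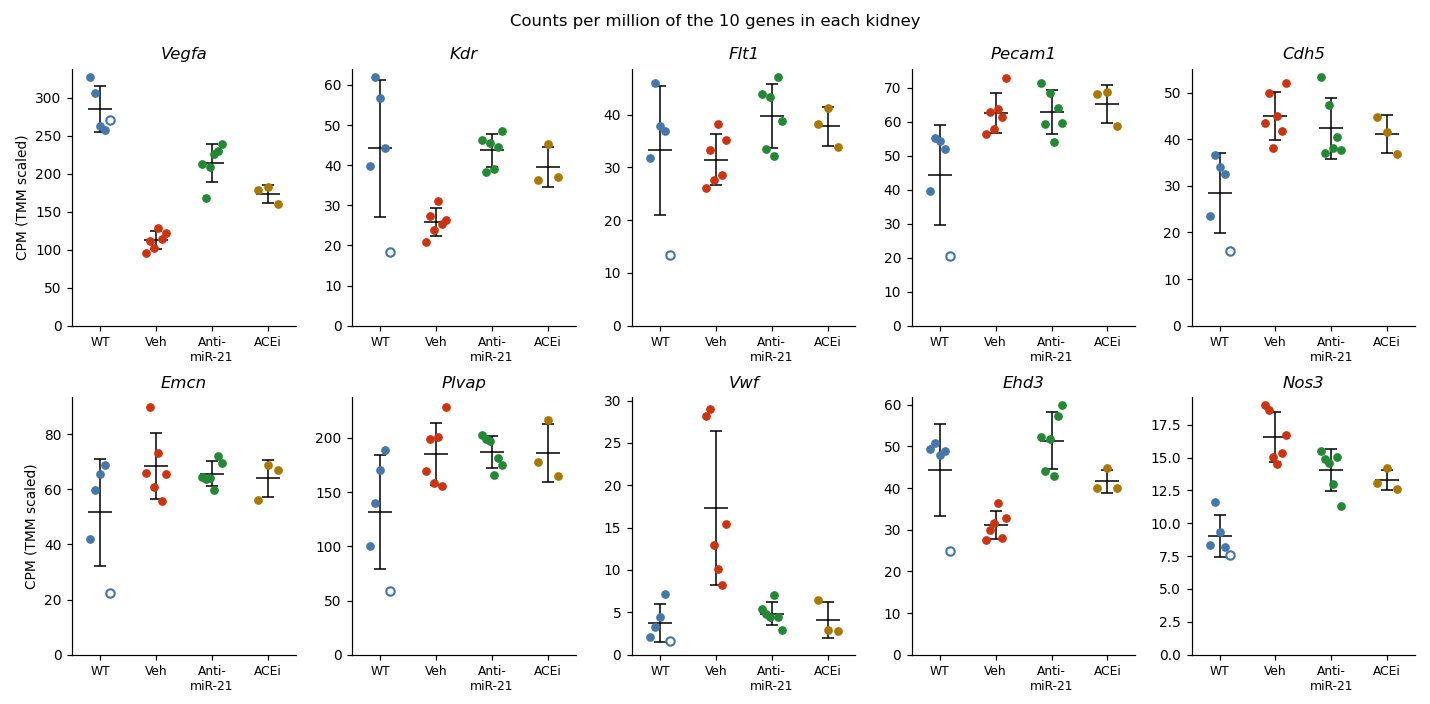
CPM of each gene in every mouse by group, with lines for the mean ± SD and WT replicate 5 drawn as an open circle. All Veh points lie below all WT points for Vegfa (95.9 to 128 against 258 to 327 CPM), while for Kdr and Ehd3 the open circle lies below the Veh points and the other 4 WT points lie above them.

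In anti-miR-21-treated kidneys Vegfa, Kdr and Ehd3 were higher than in Veh and Vwf was lower, and the other 6 genes were not called. The 4 of 10 called genes compare with 59.2% of all genes tested (28.8% higher and 30.5% lower). Treated and Veh mice did not overlap for these 4, as for 36.4% of all genes (18.6% higher and 17.9% lower). The median log2 fold change was 0.01 over the 10 genes and -0.04 over all genes.

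Vegfa was at 168, 219.3 and 240 CPM (lowest, median, highest) in the anti-miR-21 group, above every Veh mouse and below every WT mouse. It was 1.91-fold higher than in Veh (log2 fold change 0.93 ± 0.0893 SE, edgeR adjusted p = 8.5e-08) and lower than in WT (log2 fold change -0.41 ± 0.0925 SE, edgeR adjusted p = 0.0014). With library totals the second value was -0.17 and not called (edgeR adjusted p = 0.067).

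Kdr was at 38.3, 45.0 and 48.4 CPM in the anti-miR-21 group (lowest, median, highest), above every Veh mouse and inside the WT range. Without WT replicate 5 that range was 39.8 to 61.9 CPM, and the lowest anti-miR-21 mouse lay below it. Kdr was 1.69-fold higher than in Veh (log2 fold change 0.76 ± 0.185 SE, edgeR adjusted p = 0.0015). Against WT the log2 fold change was -0.02 (95% interval -0.42 to 0.39), and -0.215 without WT replicate 5 (edgeR adjusted p = 0.16). On the FPKM scale, with limma on log2(FPKM + 1), the Kdr difference from Veh was 0.39 and not called (limma adjusted p = 0.086). Ehd3 was at 42.8, 52.0 and 59.98 CPM (lowest, median, highest), again above every Veh mouse. It was 1.66-fold higher than in Veh (log2 fold change 0.73 ± 0.133 SE, edgeR adjusted p = 9.8e-05).

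Vwf was at 2.87, 4.67 and 7.01 CPM in the anti-miR-21 group (lowest, median, highest), below every Veh mouse and within the WT range. It was 3.58-fold lower than in Veh (log2 fold change -1.84 ± 0.359 SE, edgeR adjusted p = 2e-04). Without the adipocyte-rich libraries the log2 fold change was -1.33 (edgeR adjusted p = 0.01).

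The junction and capillary genes showed no call against Veh. Pecam1 was at 54.0, 61.9 and 71.4 CPM in the anti-miR-21 group, Cdh5 at 37.1, 39.2 and 53.3 CPM, Emcn at 59.7, 64.2 and 72.1 CPM and Plvap at 166, 190 and 202.8 CPM (lowest, median, highest each), all overlapping Veh. Their log2 fold changes lay between -0.09 and 0.01. The widest 95% interval of the 4, that of Plvap, was -0.38 to 0.40. Nos3 was at 11.3, 14.7 and 15.5 CPM, with a log2 fold change of -0.24 (edgeR adjusted p = 0.053). Nos3 stood at the edge of the threshold: it was called lower by DESeq2 (adjusted p = 0.035), with upper-quartile scaling (edgeR adjusted p = 0.015), with library totals (edgeR adjusted p = 0.00044), with flow cell as a term (edgeR adjusted p = 0.044) and without anti-miR-21 replicate 1 (edgeR adjusted p = 0.042). Flt1 was at 32.1, 41.1 and 47.0 CPM. It was called higher within the larger flow cell (log2 fold change 0.45, edgeR adjusted p = 0.011) and when the 2 groups were fitted alone (0.34, edgeR adjusted p = 0.017), but its sign turned on the FPKM scale. Cdh5 was called lower with library totals (log2 fold change -0.42, edgeR adjusted p = 0.03).

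Against WT, the anti-miR-21 group had 5 of the 10 genes called, with 43.7% of all genes called (23.9% higher and 19.8% lower). Cdh5 (log2 fold change 0.57, edgeR adjusted p = 0.0068), Nos3 (0.64, edgeR adjusted p = 0.00012), Pecam1 (0.50, edgeR adjusted p = 0.021) and Plvap (0.51, edgeR adjusted p = 0.044) were higher and Vegfa was lower. The Plvap call was lost without any one of WT replicates 1, 2 and 5 or anti-miR-21 replicates 1, 2, 3 and 5 (edgeR adjusted p 0.057 to 0.11), and without the adipocyte-rich libraries (edgeR adjusted p = 0.05). Fitted on the 2 groups alone, Pecam1 (edgeR adjusted p = 0.056) and Plvap (edgeR adjusted p = 0.082) were not called, and within the larger flow cell Cdh5 was not (edgeR adjusted p = 0.055). The groups did not overlap for Vegfa and Cdh5, as for 23.8% of all genes (9.06% lower and 14.7% higher).

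In ACEi-treated kidneys 4 of the 10 genes were called against Veh, Vegfa, Kdr and Ehd3 (higher) and Vwf (lower), with 40.1% of all genes called (19.1% lower). The median log2 fold change was 0.04 over the 10 genes and -0.05 over all genes. The 2 treatments were set against the same Veh mice, so the 2 sets of values are not independent. The groups did not overlap for these 4 genes and for Nos3, as for 38.6% of all genes (19.8% higher and 18.8% lower).

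Vegfa was at 178, 183 and 161 CPM in the 3 ACEi mice, above every Veh mouse and below every WT mouse. It was 1.55-fold higher than in Veh (log2 fold change 0.63 ± 0.106 SE, edgeR adjusted p = 0.00013) and lower than in WT (log2 fold change -0.71 ± 0.115 SE, edgeR adjusted p = 4.6e-05). Vwf was at 6.49, 2.86 and 2.76 CPM, 4.28-fold lower than in Veh (log2 fold change -2.10 ± 0.475 SE, edgeR adjusted p = 0.0017). Without the adipocyte-rich libraries the Vwf log2 fold change was -1.45 (edgeR adjusted p = 0.026), a ratio more than 1.5 times smaller.

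Kdr was at 36.3, 45.3 and 37.1 CPM in the ACEi mice and Ehd3 at 40.01, 44.8 and 40.1 CPM. Both lay above every Veh mouse. The log2 fold changes were 0.62 ± 0.221 SE for Kdr (edgeR adjusted p = 0.032) and 0.42 ± 0.16 SE for Ehd3 (edgeR adjusted p = 0.041). These 2 calls were lost without any one of the 3 ACEi mice or Veh replicate 1, and that of Ehd3 also without Veh replicate 5 (edgeR adjusted p 0.05 to 0.14). They were lost without the adipocyte-rich libraries too (edgeR adjusted p = 0.15 each), with library totals (edgeR adjusted p 0.2 for Kdr and 0.42 for Ehd3) and with upper-quartile scaling (0.053 and 0.078), and Ehd3 was at 0.051 with flow cell as a term.

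Of the remaining genes, Flt1 was at 38.2, 41.2 and 33.9 CPM, Pecam1 at 68.2, 68.8 and 58.9 CPM and Cdh5 at 44.8, 41.6 and 36.8 CPM in the ACEi mice. Emcn was at 56.2, 68.7 and 66.8 CPM, Plvap at 177, 217 and 165 CPM and Nos3 at 13.1, 14.2 and 12.6 CPM. None of the 6 was called against Veh, and Nos3, whose ACEi values all lay below the Veh range, came nearest (log2 fold change -0.32, edgeR adjusted p = 0.054). Nos3 was called lower by DESeq2 (adjusted p = 0.032), with upper-quartile scaling (edgeR adjusted p = 0.022) and with library totals (edgeR adjusted p = 0.0041).

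Against WT, 4 of the 10 genes were called in the ACEi group, with 47.7% of all genes called (25.2% higher and 22.5% lower). Pecam1 (log2 fold change 0.56, edgeR adjusted p = 0.026), Cdh5 (0.53, edgeR adjusted p = 0.026) and Nos3 (0.56, edgeR adjusted p = 0.0016) were higher and Vegfa was lower. The groups did not overlap for these 4, as for 46.1% of all genes (23.9% higher and 22.3% lower). Pecam1 and Cdh5 lost their calls without ACEi replicate 1 or 2 or WT replicate 1 (edgeR adjusted p 0.052 to 0.096), and when the 2 groups were fitted alone (edgeR adjusted p 0.085 and 0.061). Without WT replicate 5 Kdr was called lower (log2 fold change -0.36, edgeR adjusted p = 0.049), and Plvap was called higher without WT replicate 3 or 4 (edgeR adjusted p 0.045 and 0.021).

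The anti-miR-21 and ACEi groups were compared directly, and none of the 10 genes was called, with 0.584% of all genes called. The groups overlapped for all 10, and were apart for 8.99% of all genes. By DESeq2 the count was also 0. At an unadjusted p under 0.05 it was 1, with 14.5% of all genes, namely Vegfa (log2 fold change 0.30 ± 0.11 SE, 95% interval 0.07 to 0.53, edgeR adjusted p = 0.21). For Ehd3 the difference was 0.30 (95% interval -0.04 to 0.65) and for Vwf 0.26 (95% interval -0.68 to 1.199). These intervals leave room for differences in either direction for Ehd3 and Vwf, so the treatments were not shown to act alike on them.

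**Figure D3:**
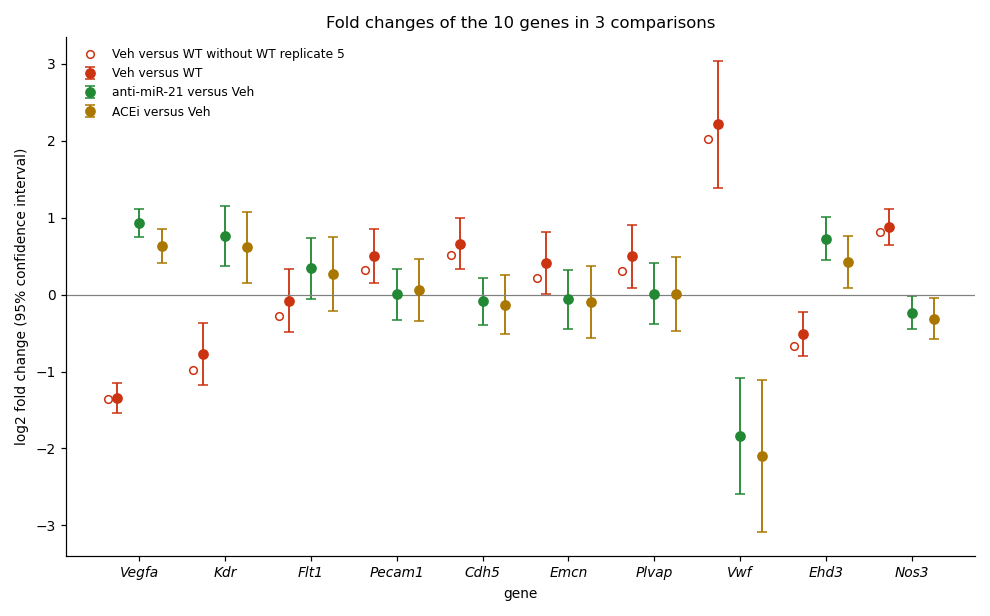
Log2 fold changes of the 10 genes in Veh versus WT, anti-miR-21 versus Veh and ACEi versus Veh with 95% intervals after TMM scaling, and as open circles the values of Veh versus WT without WT replicate 5. Vegfa, Kdr and Ehd3 lie below 0 in Veh versus WT and above 0 in both treatments versus Veh, with Vwf on the opposite sides, and with library totals in place of TMM scaling Ehd3 in Veh versus WT turns to 0.07.

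The same genes were then set against the endothelium as a whole, as log2 CPM minus the median log2 CPM of the 20 other endothelial genes in the same mouse. Because those 20 genes were themselves higher in Veh, most of the transcriptome was lower on this scale, with a median of -0.66 over all genes in Veh against WT. Vegfa was at 4.40 ± 0.37 in WT (SD, n = 5), 2.32 ± 0.20 in Veh, 3.47 with anti-miR-21 and 3.24 with ACEi (group means, log2). Kdr was at 1.60, 0.19, 1.19 and 1.10 in WT, Veh, anti-miR-21 and ACEi, and Ehd3 at 1.67, 0.46, 1.42 and 1.18.

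On that scale Vegfa, Kdr and Ehd3 were lower in every Veh mouse than in every WT mouse, WT replicate 5 included, as were 44.7% of all genes, whereas 12.4% were higher (57.1% in all). They were also higher in every anti-miR-21 mouse than in every Veh mouse, as were 24.6% of all genes, and Vwf was lower, as were 7.59% (32.2% in all). Cdh5, by contrast, was at 1.02, 0.997, 1.13 and 1.15 in WT, Veh, anti-miR-21 and ACEi, and Nos3 at -0.59, -0.44, -0.45 and -0.47, with WT and Veh overlapping for both. Vwf stood at -2.02, -0.53, -2.01 and -2.28 in the same order, with WT and Veh overlapping. In the ACEi group 7 of the 10 genes (Vegfa, Kdr, Flt1, Pecam1, Cdh5, Plvap and Ehd3) lay above every Veh mouse, as did 31.5% of all genes, and Vwf lay below, as did 4.68% (36.2% in all). With 3 ACEi mice the gap was narrow for Cdh5 (1.067 against 1.063 in Veh) and Plvap (3.232 against 3.21). Over all genes the median difference on this scale was 0.24 in ACEi versus Veh.

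**Figure D4:**
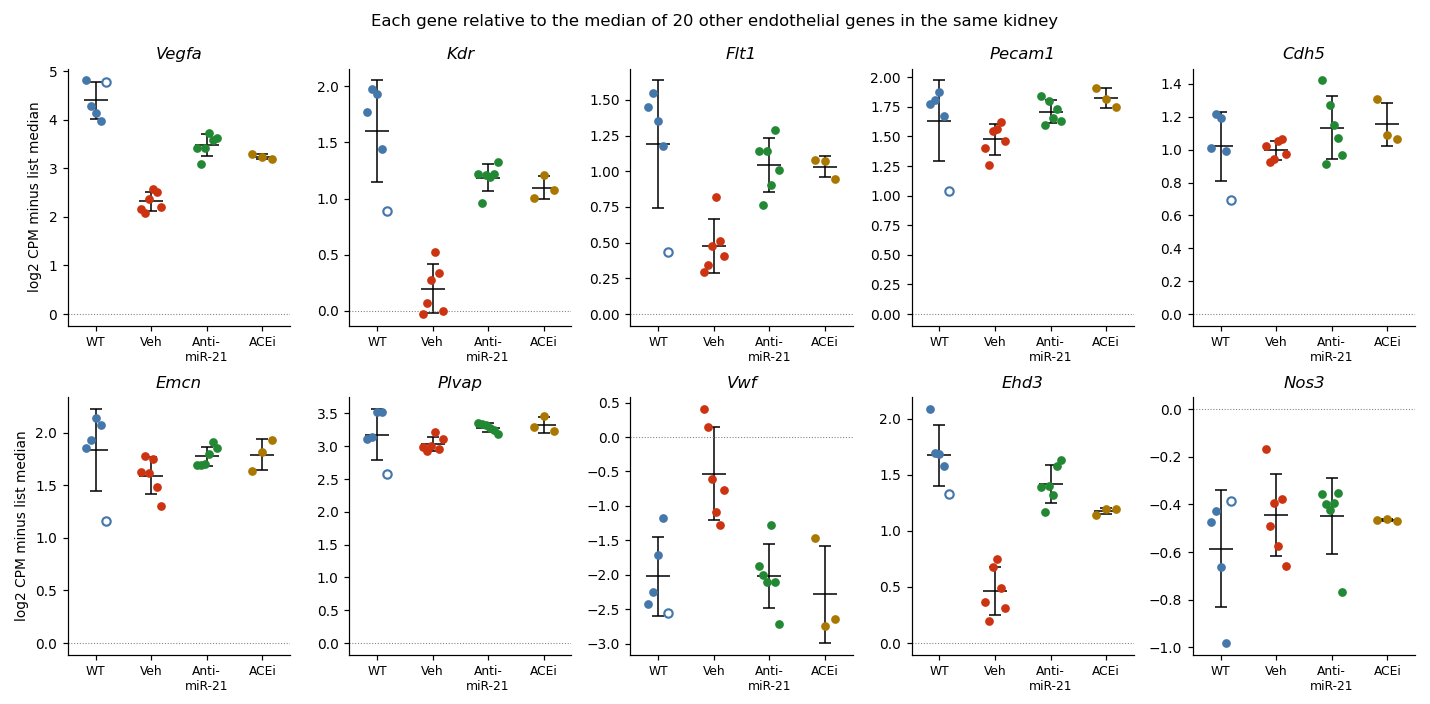
Each gene's log2 CPM minus the median of 20 other endothelial genes in the same kidney, 1 point per mouse, with mean ± SD and WT replicate 5 as an open circle. Kdr drops from a mean of 1.60 in WT to 0.19 in Veh with no overlap, while Cdh5 stays between group means of 0.997 and 1.15.

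Beside 39.0% of all genes called higher and 34.0% called lower in Veh than in WT, 15 of the 20 other endothelial genes were called higher and 0 lower. Their median log2 fold change was 0.60 (13 higher and a median of 0.48 without WT replicate 5). Calcrl, a receptor subunit for adrenomedullin, had the largest rise, from a WT median of 10.2 CPM to a Veh median of 21.2 CPM (log2 fold change 1.38). Against Veh, 5 of the 20 were lower with anti-miR-21 and 3 with ACEi, and 0 were higher in either, beside 30.5% and 19.1% of all genes called lower. Other cell types also moved with these comparisons. The 6 macrophage markers summed to 131 to 143 CPM in WT and 668 to 787 CPM in Veh, the 5 fibroblast markers to 82.5 to 199 CPM and 1359 to 1644 CPM, and the 5 podocyte markers, from the cells that make much of the glomerular Vegfa, to 195 to 324 CPM and 347 to 413 CPM. The proximal tubule markers summed to 12479 to 15987 CPM in WT and 1585 to 4130 CPM in Veh. From a Veh median of 2355 CPM the proximal tubule sum was at a median of 8542 CPM with anti-miR-21 and 7179 CPM with ACEi. The macrophage sum was at medians of 707, 332 and 388 CPM in Veh, anti-miR-21 and ACEi, the fibroblast sum at 1530, 522 and 747 CPM, and the podocyte sum at 374, 448 and 423 CPM. Their part in the results was not tested.

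The counts of the lists that follow stand beside 39.0% of all genes called higher and 34.0% called lower in Veh against WT. The other 7 genes of the VEGF family were all called in Veh against WT, 6 higher and 1 lower. Vegfb, the Flt1-binding ligand, was the lower one, at a median of 58.7 CPM in WT and 40.9 CPM in Veh (log2 fold change -0.60 ± 0.0899 SE, edgeR adjusted p = 4.9e-06), and this call was lost with library totals (log2 fold change -0.01). Among the ligands, Pgf, which binds Flt1, rose by a log2 fold change of 1.398, and the lymphatic growth factors Vegfc and Vegfd by 0.77 and 0.90. Among the receptors, Flt4 (VEGFR3) rose by 0.85, and the coreceptors Nrp1 and Nrp2 by 0.61 and 1.18. Against Veh, Vegfb was higher (0.31) and Vegfd (-0.66) and Pgf (-0.63) were lower in the anti-miR-21 group, and Pgf alone was called in the ACEi group (-0.91). The Vegfb call in the anti-miR-21 group was lost with library totals (log2 fold change -0.04, edgeR adjusted p = 0.71).

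In the angiopoietin and Tie system, which keeps vessels quiescent, 2 of 6 genes were higher and 1 lower in Veh than in WT. The agonist Angpt1 was at medians of 9.84 CPM in WT and 6.06 CPM in Veh (log2 fold change -0.50, edgeR adjusted p = 0.019), a sign that turned with library totals (0.09), and its call was lost without the adipocyte-rich libraries. Angpt4 (log2 fold change 1.32, edgeR adjusted p = 0.0092) lost its call there too (0.39, edgeR adjusted p = 0.44). The phosphatase Ptprb rose (0.37), whereas the receptors Tek (0.05) and Tie1 (0.31) and the antagonist Angpt2 (0.12) were not called. Against Veh, Angpt4 was lower in the anti-miR-21 group (-1.46), and Angpt1 was called higher in the ACEi group (0.57) with TMM scaling but not with library totals (0.29, edgeR adjusted p = 0.24).

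Lists for single beds of the endothelium were counted separately. The 4 other glomerular endothelial markers gave 2 higher and 1 lower in Veh than in WT, with Plat, the tissue plasminogen activator, at medians of 52.4 CPM in WT and 149 CPM in Veh (log2 fold change 1.53). Sost fell (log2 fold change -0.81), a call lost without WT replicate 5 and with library totals. Among arterial genes 6 of 7 were higher (4 without WT replicate 5), led by the kinase Bmx (1.71). All 6 venous and activation genes were higher, with a median log2 fold change of 2.70. On the log2 scale the rises of Selp, or P-selectin (5.78 ± 0.504 SE), and the adhesion molecule Vcam1 (5.64 ± 0.24 SE) lay within an SE of each other. Vcam1 went from 3.48 to 9.02 CPM in WT to 235 to 384 CPM in Veh. Whole kidney RNA does not tell whether endothelial or other cells held it, and its source was not tested. Selp went from 0 to 0.338 CPM in WT to 4.32 to 6.69 CPM in Veh. Relative to Veh, Selp fell with anti-miR-21 (log2 fold change -2.31) and with ACEi (-1.66). Of the 6 venous and activation genes, 5 were called lower with anti-miR-21, beside 30.5% of all genes. With ACEi only Selp was called, beside 19.1% of all genes called lower. Vcam1 was not called with ACEi (-0.33, edgeR adjusted p = 0.25). Of the lymphatic genes 2 of 4 were higher and 1 lower in Veh than in WT. That count, like the glomerular one, was near the share of 73.0% called over all genes.

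Among genes that act on vessels, all 6 angiogenesis inhibitors were higher in Veh than in WT (median log2 fold change 2.16). Thbs2, a thrombospondin, was at medians of 4.05 CPM in WT and 59.4 CPM in Veh. Of 12 genes of nitric oxide signalling 10 were higher and 2 lower, with Arg2, which competes for arginine, the largest rise (2.15) and Ddah1, which degrades an inhibitor of nitric oxide synthases, the largest fall (-1.998). Of 12 hypoxia response genes 4 were higher and 4 lower, the called values running from -2.82 (Car9) to 0.24 (Vhl), and with library totals 9 were higher and 3 lower. Against Veh, Car9 was higher in the anti-miR-21 group (2.12) and the ACEi group (1.39), and Ddah1 likewise (1.43 and 1.17).

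**Figure D5:**
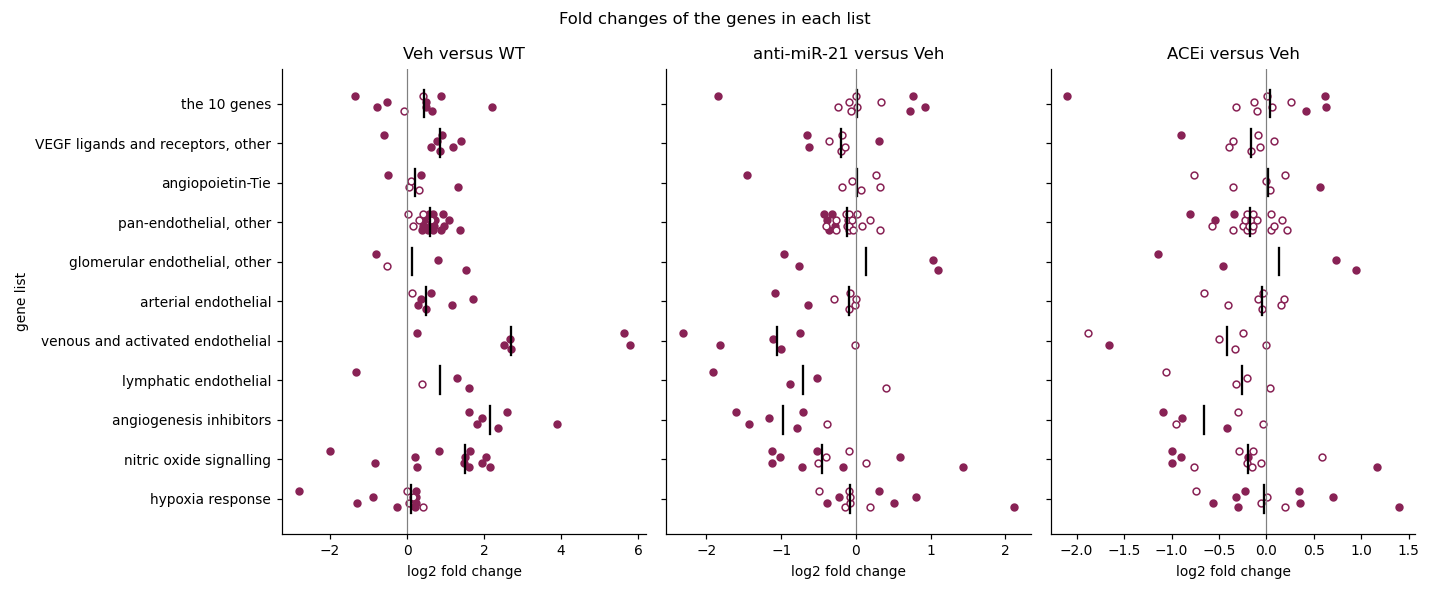
Log2 fold changes of single genes (points) by list in Veh versus WT, anti-miR-21 versus Veh and ACEi versus Veh after TMM scaling, each on its own axis, with filled points called at an edgeR adjusted p under 0.05, open points not called and bars at the list medians. The venous and activation genes have a median of 2.70 and the 20 other endothelial genes 0.60 in Veh versus WT, against 0.07 for all genes tested.

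Finally, each gene's mouse-to-mouse variation was described as the Pearson correlation, over the 20 mice, of deviations in log2 CPM from the group means. These values are descriptive, since the points share libraries and WT replicate 5 weighs on them. Among the 36 pairs that leave out Vegfa the median r was 0.784, and 0.438 without WT replicate 5. For the 9 pairs with Vegfa it was 0.109, and 0.033 without that mouse. Of 12560 protein-coding candidates, the genes most like Kdr were Tmem204 (r = 0.946), Ecm1 (0.936) and Tek (0.927), and those most like Flt1 were Tek (0.969), Tmem204 (0.956) and Rasgrp3 (0.954). Pecam1 was nearest to Flt4 (0.972), Tie1 (0.966) and Tmem204 (0.956), and Cdh5 to Mmrn2 (0.961), Ifi44 (0.95) and Calcrl (0.941). Emcn was nearest to Plpp1 (0.943), Srgn (0.908) and Cd200 (0.906), and Plvap to Chst2 (0.936), Hoxa11 (0.92) and Plpp1 (0.92).

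The ligand and the remaining genes had other neighbours. Genes close to Vegfa were Atg13 and Tmem88b (r = 0.908 each). Vwf was nearest to Hcar1 (0.88), a receptor known from adipocytes, Phactr1 (0.86) and Gata3 (0.84). Ehd3 was nearest to Abca8a (0.899), Igfbp3 (0.893) and Cd200 (0.872), which fell to 0.731, 0.641 and 0.543 without WT replicate 5. Nos3 was nearest to Ikbip (0.824), Cplx2 (0.8) and Ankrd6 (0.797).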

How the data were processed

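Whole kidney RNA of 20 mice was sequenced by the authors as 100 bp paired-end reads and aligned to GRCm38 with the OmicSoft aligner (OSA4). The authors deposited expected counts for Ensembl genes that were not normalized, and 27.87% of the positive values were not whole numbers (tolerance 1e-06). The deposited FPKM values, mostly on UCSC gene models, were normalized by the authors for length and library total, and 3 FPKM columns that matched no mouse of these groups were not used. Whether strand was used in library preparation or counting is not given in the sources used here. Mice were assigned to groups by their labels, and replicate numbers follow the order of deposition and pair no mice.

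Expected counts were rounded, filtered with filterByExpr (minimum count 10, minimum total 15), scaled by TMM and fitted in R 4.3.3 by edgeR 4.0.16 (glmQLFit, glmQLFTest). All 20 mice entered 1 fit with a term for each group, and p-values of the 17622 genes tested were adjusted by Benjamini-Hochberg. As an alternative, log2(FPKM + 1), the scale of the paper's own test, was fitted with limma 3.58.1, and the count test was used for the main values because counts were deposited. DESeq2 1.42.0, other scalings and filters, flow cell as a term or alone, the groups compared alone, and each mouse left out were the other alternatives. Log2 CPM used a prior count of 2. Totals of 28474301 to 29479629 counts per library set the precision of low genes such as Vwf, and p-values measure the spread between mice. Plots used matplotlib 3.10.9 under Python 3.11.15, with pandas 2.3.3 and numpy 2.4.6.

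The 10 genes and the gene lists were chosen with earlier results of these data known. Named were the 10 genes, all other VEGF and angiopoietin-Tie genes, the gene with the largest called rise and fall in Veh versus WT of the other lists, the knockout target, and the 3 protein-coding genes most correlated with each of the 10 (mean of at least 1 log2 CPM), of which 1 is not reported here. Of those lists, examples were printed for the ones that bear on vessels. Pf4, Itga2b, Ppbp, Gp1ba and Gp9 were named beside Vwf, and Vcam1 beside Selp after its value was seen.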

Additional observations from a re-analysis of the deposited data

Results flagged for a closer look

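In 33 sets of 4 to 10 mice, the gap of the highest or lowest mouse to its neighbour, divided by the range of the group, was compared with Dixon's 95% limit, and 2 exceeded it. Chance alone gives about 1 in 20 sets. Ehd3 in WT replicate 5 was at 4.64 log2 CPM against 5.58 to 5.67 in the other 4 WT mice (ratio 0.915, limit 0.71). The median of the 20 other endothelial genes in anti-miR-21 replicate 4, one of the adipocyte-rich libraries, was at 4.10 log2 CPM against 4.27 to 4.32 in the other 5 (ratio 0.772, limit 0.625).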

How the results depend on the processing

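No paired analysis was possible because each mouse has a name of its own and the replicate numbers only follow the order of deposition. Leaving out the adipocyte-rich libraries, and every alternative for the lists, was chosen after seeing the data. Most results that turned direction were small differences that were not called. Ehd3 in Veh versus WT was an exception. It was called lower with TMM scaling (log2 fold change -0.51, edgeR adjusted p = 0.0024) and turned with library totals and on the FPKM scale, as given below. Counts changed where calls were lost or gained. The number of the 10 genes called was 2 for ACEi versus Veh without the adipocyte-rich libraries, and, with only the groups compared, 2 for ACEi versus WT and 3 for anti-miR-21 versus WT.

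Log2 fold changes that turned with library totals were, for Ehd3, 0.22 (ACEi versus WT) and 0.066 (Veh versus WT), for Flt1 -0.005 (ACEi versus Veh) and 0.50 (Veh versus WT), for Kdr 0.14 (ACEi versus WT) and 0.22 (anti-miR-21 versus WT), for Pecam1 -0.21 (ACEi versus Veh) and -0.33 (anti-miR-21 versus Veh), and for Plvap -0.27 and -0.32 in those 2 comparisons. This scaling moved the median of all genes to 0.65 in Veh versus WT, -0.38 in anti-miR-21 versus Veh and -0.32 in ACEi versus Veh. With limma on log2(FPKM + 0.1) they were 0.27 and 0.12 for Ehd3, 0.66 (Veh versus WT) and -0.021 (anti-miR-21 versus Veh) for Flt1, 0.30 and 0.37 for Kdr, -0.23 and -0.34 for Pecam1, and -0.27 and -0.33 for Plvap. With limma on log2(FPKM + 1), with or without a minimum mean of 1 FPKM, they were 0.24 and 0.11 for Ehd3, 0.47 and -0.013 for Flt1, 0.24 and 0.30 for Kdr, -0.22 and -0.33 for Pecam1, and -0.26 and -0.32 for Plvap.

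Upper-quartile scaling turned Flt1 (0.03, Veh versus WT), Kdr (0.013, anti-miR-21 versus WT), Pecam1 (-0.013 for ACEi and -0.072 for anti-miR-21 versus Veh) and Plvap (-0.066 and -0.063). Without the adipocyte-rich libraries Emcn was 0.01 (ACEi versus Veh) and 0.066 (anti-miR-21 versus Veh), Flt1 0.034 (Veh versus WT), Kdr 0.036 (anti-miR-21 versus WT), Pecam1 -0.012 (anti-miR-21 versus Veh) and Plvap -0.037 (ACEi versus Veh) and -0.005 (anti-miR-21 versus Veh). At least 10 counts in every mouse gave Kdr 0.025 (anti-miR-21 versus WT), Pecam1 -0.015 (anti-miR-21 versus Veh) and Plvap -0.001 (ACEi versus Veh) and -0.007 (anti-miR-21 versus Veh), and no filter gave Kdr 0.009 (anti-miR-21 versus WT). DESeq2's test and its size factors each gave Pecam1 -0.004 (anti-miR-21 versus Veh) and Plvap 0 (ACEi versus Veh), and flow cell as a term gave Plvap -0.034 (ACEi versus Veh).

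Leaving out 1 mouse gave ranges that crossed 0 for Emcn (-0.15 to 0.022 in ACEi and -0.095 to 0.051 in anti-miR-21 versus Veh), Flt1 (-0.015 to 0.33 in ACEi and -0.28 to 0.068 in Veh versus WT), Kdr (-0.22 to 0.14, anti-miR-21 versus WT), Pecam1 (-0.034 to 0.073, anti-miR-21 versus Veh), Plvap (-0.11 to 0.10 in ACEi and -0.012 to 0.10 in anti-miR-21 versus Veh) and Vwf (-0.40 to 0.50, ACEi versus WT). The genes called numbered 2 to 4 in ACEi versus Veh, fewest without 1 of the ACEi mice or Veh replicate 1, and 2 to 5 in ACEi versus WT, fewest without ACEi replicate 1 or 2 or WT replicate 1. The causes were not tested. With 3 ACEi mice, small differences in that group could not be resolved.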
